A study of Mus musculus with 8 samples.

Results

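The Ucp2 and Ucp3 genes lie side by side on mouse chromosome 7 (GRCm38, mm10), both on the plus strand, and all ATAC-seq peaks over the gene bodies and the 20 kb on each side were collected from 8 libraries of alveolar macrophages (AMs). The window ran from 100452990 to 100522020. Peaks that shared at least 1 base were merged across libraries, which gave 18 regions of 82424 in the whole series. They are called L1 to L18 in chromosome order. Of these, 16 were called in 2 or more libraries (of 72711 such regions) and 12 had a peak in all 8 (of 47499). ATAC-seq marks open chromatin as places where a transposase can cut and insert sequencing adapters, and a peak is a stretch where the cuts pile up above the local background. The AMs were mature cells sorted as CD11b- SiglecF+ from the bronchoalveolar lavage of adult mice. The 4 KO libraries (replicates 1_2, 1_3, 2 and 3) came from Cd11cCre+ Rxrab fl/fl animals, and the 4 WT libraries (replicates 1_2, 1_3, 3 and 4) from Rxrab fl/fl animals without Cre, so that floxed Rxra and Rxrb alleles were present in every mouse. Values of single libraries are given in this order of replicates throughout, except where a replicate is named. Cre is driven by the CD11c promoter, which is active in AMs and also in dendritic cells. Nothing in the sources says whether replicates 1_2 and 1_3 share an animal. The p-values therefore measure the spread between these libraries, which may in part be technical.

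Ucp2 and Ucp3 encode uncoupling proteins, carriers of the SLC25 family in the inner mitochondrial membrane. Ucp2 is broadly expressed, including in macrophages, and Ucp3 is best known from skeletal muscle and brown fat, where fatty acids and PPAR ligands induce it. RXRs are nuclear receptors that pair with PPARs, LXRs, RARs and other receptors. The PPAR-RXR pair binds DR1 elements, a pair of AGGTCA-like half-sites in the same direction with a single base between them.

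Sequence at 4 places is shown for reference in the results below, all on the plus strand of GRCm38 and read 5′ to 3′. L2 is the region whose summit tags differed between genotypes, the Ucp3 and Ucp2 stretches are the bases directly upstream of each transcription start, and L6 is the region open in all libraries that lies nearest the Ucp3 start. Capitals mark matches to the patterns searched, other than single AGGTCA half-sites, which stay in lower case outside a DR1 match. In L2 they mark TGGGAA, the RBPJ pattern. In the Ucp3 stretch they mark a STAT match and then a DR1 match, in L6 they mark a pair of DR1 matches on the opposite strand, and in the Ucp2 stretch a RUNX match on the opposite strand.
L2, chr7:100465700-100465900: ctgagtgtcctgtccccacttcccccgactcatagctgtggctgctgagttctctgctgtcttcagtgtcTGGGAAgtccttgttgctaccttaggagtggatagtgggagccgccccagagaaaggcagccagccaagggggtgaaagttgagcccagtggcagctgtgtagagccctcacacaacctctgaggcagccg
Ucp3 upstream, chr7:100472741-100472990: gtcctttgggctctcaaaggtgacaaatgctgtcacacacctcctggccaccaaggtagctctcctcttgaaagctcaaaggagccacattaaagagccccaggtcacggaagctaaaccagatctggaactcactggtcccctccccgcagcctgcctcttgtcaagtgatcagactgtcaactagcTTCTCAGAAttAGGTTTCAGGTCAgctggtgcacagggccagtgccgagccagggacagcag
L6, chr7:100473889-100474089: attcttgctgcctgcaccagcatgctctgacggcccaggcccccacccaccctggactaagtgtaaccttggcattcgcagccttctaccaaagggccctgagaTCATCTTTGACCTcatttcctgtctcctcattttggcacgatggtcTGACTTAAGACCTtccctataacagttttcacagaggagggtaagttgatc
Ucp2 upstream, chr7:100493108-100493336: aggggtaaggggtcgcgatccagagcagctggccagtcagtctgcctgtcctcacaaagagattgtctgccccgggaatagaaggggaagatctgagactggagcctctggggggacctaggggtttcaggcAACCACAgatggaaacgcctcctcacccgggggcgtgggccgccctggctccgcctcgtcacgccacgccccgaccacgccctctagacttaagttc

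The starts of the genes differed in base composition. The 300-base RefSeq promoter window of Ucp2 held 21 CpG dinucleotides at 64.3% G+C, more CpGs than 75.2% of 32851 promoters. The Ucp3 window held 5 CpGs at 55.0% G+C, against a median of 7 over all promoters. The STAT match (pattern TTCNNNGAA) began 62 bases before the Ucp3 start and the DR1 match 51 bases before it. A DR1 match with at most 2 mismatches was present in 3.86% of promoter windows and a STAT match in 8.30%.

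Motifs were also counted within 100 bp of each region's strongest summit (201 bases, both strands). DR1 matches, all with 2 mismatches, lay in L5 at the Ucp3 start, in L6 and in L17, which is 3 of the 16 regions called in 2 or more libraries, compared with 4.14% of all 72711 regions. The single half-site AGGTCA, which is part of several DR1 matches, was found in 5 of the 16 regions (15.1% of all regions), namely L5, L6, L8, L16 and L17. TGGGAA (RBPJ) was found in 6 (18.8% of all), which were L2, L7, L9, L14, L15 and L16. TGANTCA (AP-1) was found in 2 (11.9%), and GAGGAAGT (PU.1), TTGCNNAA (C/EBP) and TTCNNNGAA (STAT) in 1 each (10.7%, 14.7% and 5.98%). TGTGGTT (RUNX) and CACGTG (E-box) matched in none of the 16 (8.98% and 5.35% of all). A match is a run of letters and not a shown binding site.

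The libraries were checked first at the deleted genes. Of 16 regions with a summit in Rxra, 12 were open in all libraries. A region inside Rxra (chromosome 2, 27744546 to 27744950) was called in every WT library, with 38, 46, 38 and 42 summit tags, and in no KO library. It was the only 1 of the 16 to separate the genotypes in this way, and whether it lies in the floxed segment was not worked out. The only region with its summit inside Rxrb had a peak in 2 KO and 2 WT libraries, so it did not check the deletion. Depth, read as background tags per 200 bp, was 1.12 to 1.86 in KO and 1.42 to 2.26 in WT, highest in WT replicate 1_3. Of 10 AM markers, 9 had a promoter peak in all libraries, and Chil3 had none. None of the 6 T and B cell markers had a promoter peak. Of 4 neutrophil markers, S100a8 and Cxcr2 had one in all libraries, as had Ly6c2 and Cx3cr1 of 4 monocyte and interstitial macrophage markers, while Ccr2 and C1qa had one in at most 2 and 1 libraries. Epcam of 3 epithelial and Pecam1 of 2 endothelial markers had a promoter peak in all libraries, while Ly6g, S100a9, Sftpc, Sftpa1 and Cdh5 had none. Of 11 AM marker promoter regions tested, 1 was higher and 1 lower in KO, against 5.81% and 7.03% of all regions. Itgax, which encodes CD11c, was higher (0.55 on the log2 scale, limma adjusted p = 3.83e-05) and Fabp4, a fatty acid binding protein, was lower (-0.70, adjusted p = 0.000224). Only the KO animals carry Cre under the CD11c promoter, and whether this adds tags at Itgax was not tested. The part of other cells in the results below was not tested.

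Most called regions of the window were open in both genotypes. The 12 regions with a peak in every library made up 75.0% of the 16 regions called in 2 or more libraries, against 65.3% over the genome. KO libraries had 16, 17, 14 and 16 peaks in the window (15.8 ± 1.26, SD, n = 4) and WT libraries 17, 19, 17 and 17 (17.5 ± 1.0, SD, n = 4). Peaks covered 6376, 7234, 7383 and 6664 bp in KO and 6957, 8530, 7801 and 7556 bp in WT. The highest count and length were both those of WT replicate 1_3, the deepest library, and the ranges of the genotypes touched or overlapped. No region was called in the 4 libraries of 1 genotype and missed in the 4 of the other (0 of 16), while such regions made up 1.1% of the 72711.

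**Figure D1:**
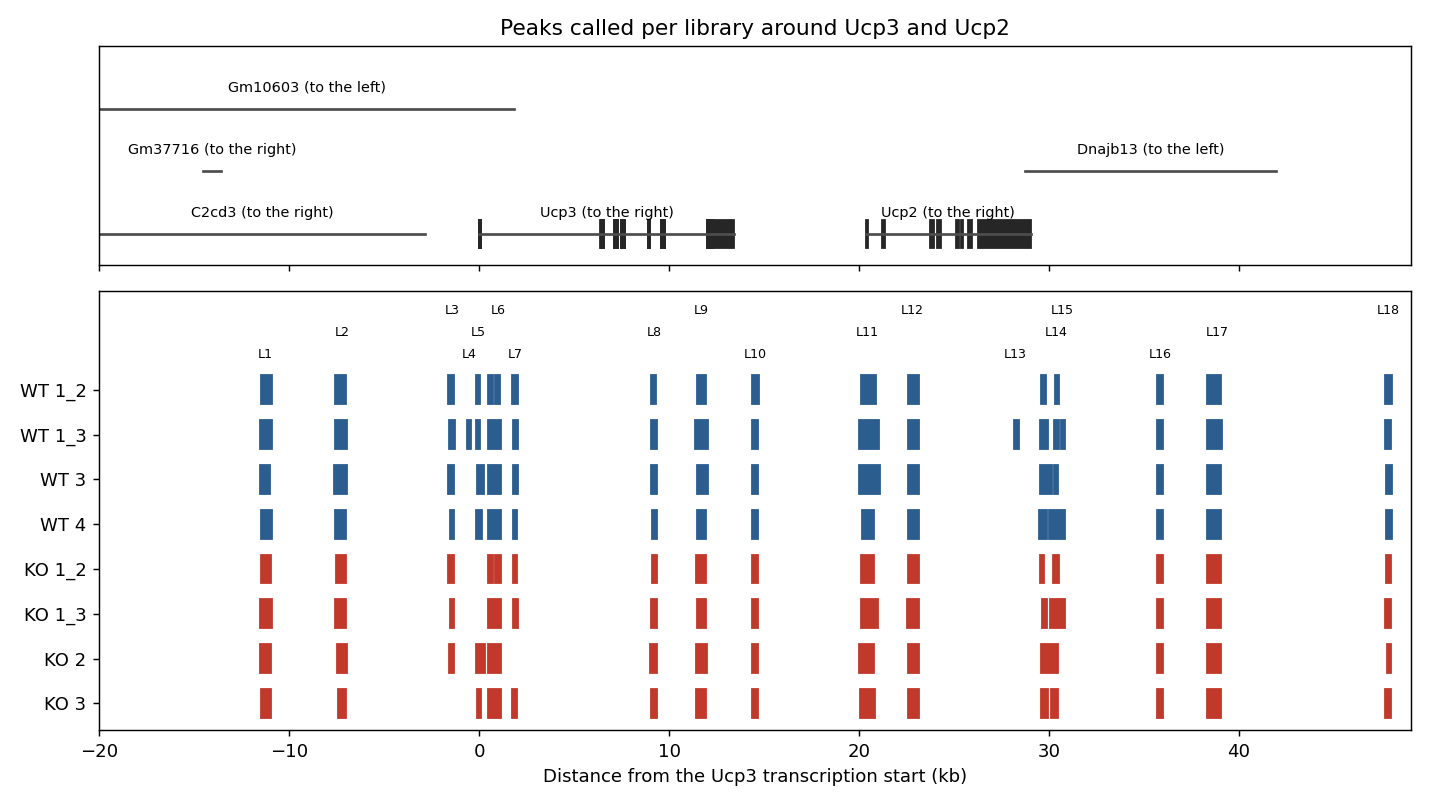
Peaks of each library (blocks; blue WT, red KO) along the window, with distance from the Ucp3 transcription start in kb on the x axis and gene bodies above (exons drawn for Ucp3 and Ucp2 only, direction of transcription in brackets). The 12 regions open in all libraries form unbroken columns. Gaps fall around the Ucp3 start, where L5 is missing from KO replicates 1_2 and 1_3, and near the 3′ end of Ucp2, where L13 and L15 were called in few libraries.

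Of the 6 regions that were not shared by all libraries, 4 lay around the 5′ end of Ucp3. Summit tags, the number of overlapping 200-bp tags at the top of a peak, were worked back from the fold and p-value of each peak. L5 (100472809 to 100473297) covers the Ucp3 start, with its summit 56 bp upstream, and holds the DR1 and STAT matches shown above. It had 27, 51, 33 and 35 summit tags in the WT libraries. In KO it had 31 tags in replicate 2 and 22 in replicate 3, and no peak in replicates 1_2 and 1_3. The KO libraries with a peak lay within or just below the WT range. Peak presence in 2 of 4 KO against 4 of 4 WT libraries gave p = 0.429 in a two-sided exact permutation test. With peaks missing from 2 libraries in all, 0.429 is the smallest p this test can give, so it could not decide at L5. At the local background of the nearest peak, a summit at L5 needed at least 16 tags to be called in either library without a peak, so a weak opening there would not be listed.

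L3 (100471370 to 100471710) lies 1.43 kb upstream of the Ucp3 start, in an intron of the antisense noncoding gene Gm10603. It had 47, 57, 47 and 35 tags in the WT replicates and 40, 29 and 29 in KO replicates 1_2, 1_3 and 2, with no peak in KO replicate 3. On the scale of a common library median this is 42.6 ± 2.45 tags in WT (SD, n = 4) and 33.9 ± 5.37 in the 3 KO libraries with a peak (SD, n = 3). The genotypes overlapped by 1 library, and in the fit without KO replicate 3 the difference of -0.33 on the log2 scale (SE 0.180) did not pass (limma, adjusted p = 0.269). That fit leaves out the library in which the region was not called.

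L7 (100474735 to 100475032) lies 1.89 kb inside Ucp3, in its first intron, and 38 bp from a transcription start of Gm10603. Its tags were 38, 57, 36 and 31 in WT and 26, 40 and 31 in KO replicates 1_2, 1_3 and 3, and KO replicate 2 had no peak. The genotypes overlapped, and without KO replicate 2 the difference was -0.10 (SE 0.192, limma adjusted p = 0.791). L4, 0.53 kb upstream of the start, was called only in WT replicate 1_3, with 39 tags. Peak presence at L3 and L7 was 3 of 4 KO and 4 of 4 WT libraries. When a single library lacks a peak, the exact permutation test gives p = 1 whichever library it is, so it could not decide here.

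L6 (100473439 to 100474166), 998 bp past the Ucp3 start in the first intron, was open in all libraries and was the second weakest such region of the window. Its highest summit held 49, 51, 41 and 39 tags in KO and 46, 55, 46 and 45 in WT. The values overlapped (0.12 on the log2 scale, KO minus WT, SE 0.154, limma adjusted p = 0.676). Most libraries had a pair of separate peaks here, 13 in all, and the highest summit lay up to 387 bp apart between libraries, so L6 joins neighbouring openings. From L3 to L7, 4 regions were called in 2 or more libraries. Of these, 3 lacked a peak in 1 or 2 KO libraries and in no WT library. The presence test could not decide at these gaps, and the share of all regions with such gaps was not worked out. Depth was 1.12 to 1.86 background tags per 200 bp in KO and 1.42 to 2.26 in WT. Its part in the gaps was not tested.

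**Figure D2:**
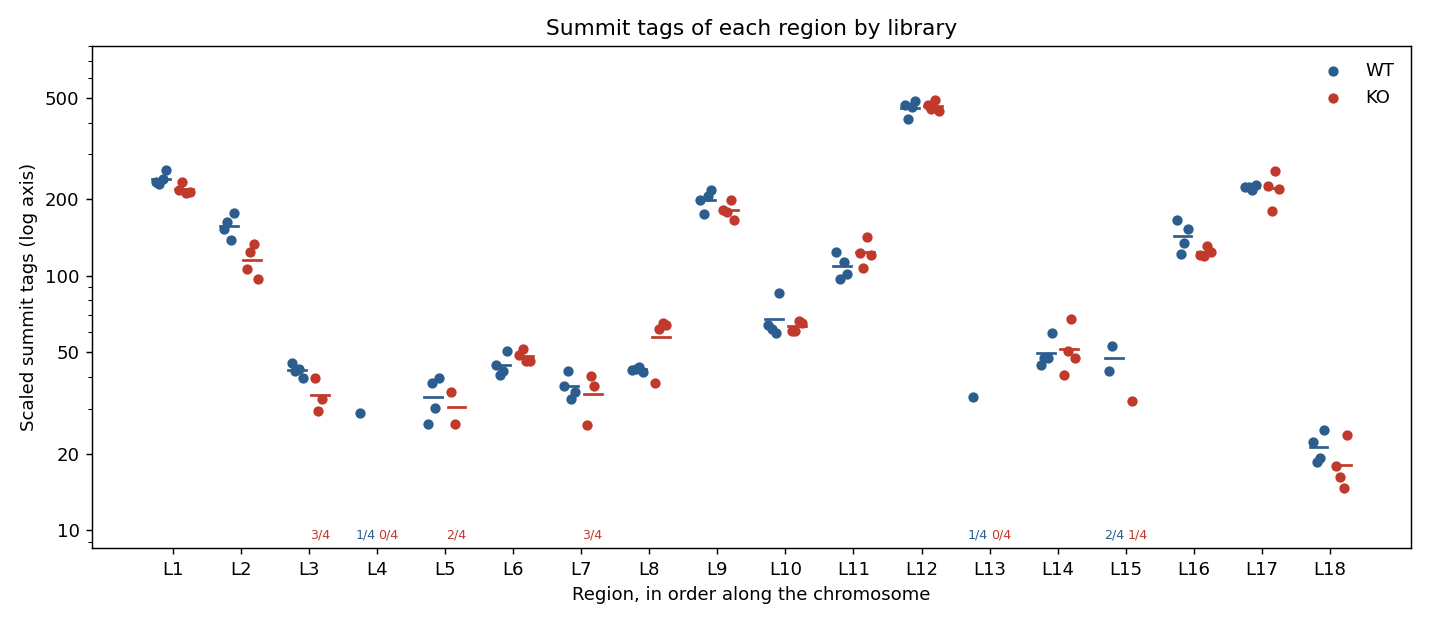
Summit tags of each region by library, scaled to a common library median (log axis), for WT (blue) and KO (red), with the mean as a bar and the number of libraries with a peak, of 4, printed where it is below 4. At L2 all KO points (97.4 to 133) lie below all WT points (138 to 177), and L12 is the strongest region in every library.

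Of the 12 regions open in all libraries, 1 was called between genotypes (limma on log2 of tags + 0.5, adjusted over all 47499 regions), against 12.8% of all regions and 7.03% called lower in KO. This region, L2 (100465365 to 100466058), lies 7.19 kb upstream of the Ucp3 start, in introns of C2cd3 and of Gm10603. C2cd3, which ends upstream of Ucp3, encodes a centriole protein. L2 had 107, 123, 118 and 82 summit tags in KO and 158, 218, 151 and 157 in WT. Every KO library was below every WT library, and this held after scaling (KO 115 ± 16.3 tags, WT 158 ± 16.4 tags, SD, n = 4 each). Over all regions, 7.91% had every KO library below every WT library and 8.25% had every KO library above. The difference was -0.45 on the log2 scale (SE 0.105, limma adjusted p = 0.00205), or 73.0% of the WT level. It kept its direction and its call under all 16 alternatives, between -0.52 and -0.37, with adjusted p from 0.000927 to 0.0434. The nearest annotated start is one of Gm10603, 1.39 kb away, and the lists do not say which gene, if any, L2 acts on. In bulk libraries, fewer cells with an open site and less opening per cell cannot be told apart.

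The regions in and around Ucp2 did not differ detectably between genotypes. L11 (100492977 to 100494081) covers the Ucp2 start and had 124, 106, 126 and 102 tags in KO and 128, 131, 124 and 90 in WT. The genotypes overlapped (0.18, SE 0.108, limma adjusted p = 0.306). With 123 ± 14.4 scaled tags in the KO and 109 ± 11.9 in the WT libraries (SD, n = 4 each), the Ucp2 start held more tags in every library than the Ucp3 start did where it was called (26.1 to 39.5 scaled tags). L12 (100495543 to 100496133), in an intron 2.46 kb past the Ucp2 start, was stronger than 99.3% of regions open in all libraries. It had 473, 447, 436 and 374 tags in KO and 487, 553, 503 and 429 in WT. The difference of 0.03 (SE 0.0737, limma adjusted p = 0.866) was smaller than its error, and its sign turned with total depth scaling (-0.03). L13, near the 3′ end of Ucp2 within the UTR of its last exon, was called only in WT replicate 1_3, with 45 tags. At the local background of the nearest peak, a summit there needed 31 or 32 tags to be called in WT replicates 1_2, 3 and 4, and in KO it needed 23 to 36.

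**Figure D3:**
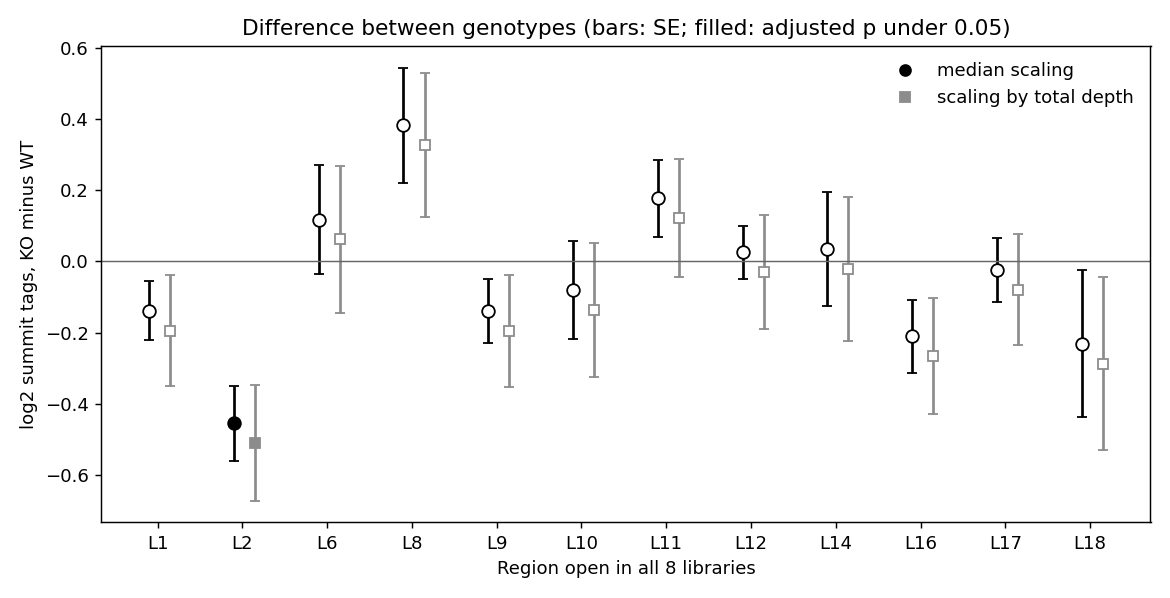
Difference in log2 summit tags, KO minus WT, for the 12 regions open in all libraries (points; bars, SE) after scaling by the library median (circles) or by total depth (squares), filled where the limma adjusted p is under 0.05. L2 at -0.45 is the only filled circle, and L8 at 0.38 is the highest.

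The remaining regions in Ucp3, L8 and L9, and L10 between the genes were open in all libraries. L8 (100482013 to 100482367), in an intron 9.22 kb past the Ucp3 start, had 38, 61, 58 and 54 tags in KO and 44, 58, 48 and 37 in WT. After scaling, 3 KO libraries (61.6 to 65.4) lay above all WT libraries (41.7 to 43.9), and KO replicate 1_2 lay below them at 37.8. The difference of 0.38 (SE 0.162) did not pass with all libraries (limma adjusted p = 0.115). Without KO replicate 1_2 it was 0.56 and passed (limma adjusted p = 0.0169; 0.0772 to 0.519 under the other alternatives), where 3.80% of all regions were called higher in KO. L9, at the end of Ucp3 11.7 kb past its start, held 139 to 182 tags in KO and 192 to 236 in WT, with scaled values that overlapped (-0.14, adjusted p = 0.335). L10, in the 6904 bp between the genes, held 55 to 61 tags in KO and 65 to 83 in WT (-0.08, adjusted p = 0.754).

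Outside the Ucp2 and Ucp3 gene bodies, the strongest region was L1 (100461446 to 100462071), 11.2 kb upstream of the Ucp3 start in an intron of C2cd3 and an exon of Gm10603. It had 218, 231, 187 and 179 tags in KO and 241, 309, 262 and 230 in WT. After scaling the genotypes overlapped by a narrow margin (-0.14, SE 0.0827, limma adjusted p = 0.289). The weakest region, L18, 5.90 kb beyond the start of Dnajb13, had 18, 16, 13 and 20 tags in KO and 23, 25, 21 and 22 in WT, and overlapped after scaling (-0.23, SE 0.206, adjusted p = 0.508). Dnajb13 encodes a DNAJ-family protein best known from testis and motile cilia. Its start, convergent with Ucp2, had no peak within 1 kb in any library. L14, L16 and L17 inside it were open in all libraries and did not pass (0.03, -0.21 and -0.02, adjusted p = 0.919, 0.179 and 0.897). Most libraries had a pair of separate peaks in L14, with the highest summit up to 716 bp apart between libraries. The value at L14 therefore compares different openings in part. L15 had a peak in KO replicate 1_3 (32 tags) and in WT replicates 1_3 and 4 (57 and 47 tags). The median difference over the 12 regions was -0.05, against 0.04 over all 47499 regions.

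A second readout was taken from the local background of each peak, which is the number of tags in the 10 kb around the summit. It was chosen after the summit results had been seen, and windows of neighbouring regions overlap. It could be read at 11 of the 12 regions. Over all 37682 regions with a readout, 15.9% were called and 9.17% were called lower in KO. In the window, 3 of 11 were called, all lower in KO. The 10 kb around L6, which takes in the Ucp3 start and L3, L4, L5 and L7, held 291, 285, 311 and 271 scaled tags in KO and 332, 342, 337 and 339 in WT. The genotypes did not overlap (-0.22, SE 0.0719, limma adjusted p = 0.0354). Around L1 and L2 the KO libraries were also all below the WT libraries (-0.27 and -0.26, limma adjusted p = 0.00431 and 0.00647). The 10 kb around each of these summits takes in the peaks of both, so the calls at L1 and L2 are not separate results. The share of all 37682 regions without overlap in this readout was not worked out. With scaling by total depth the differences were -0.27, -0.32 and -0.30 at L6, L1 and L2, and none passed (limma adjusted p = 0.204, 0.0821 and 0.107). Around L11 and L12 at Ucp2 the difference was 0.07 at each (adjusted p = 0.504 and 0.518).

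**Figure D4:**
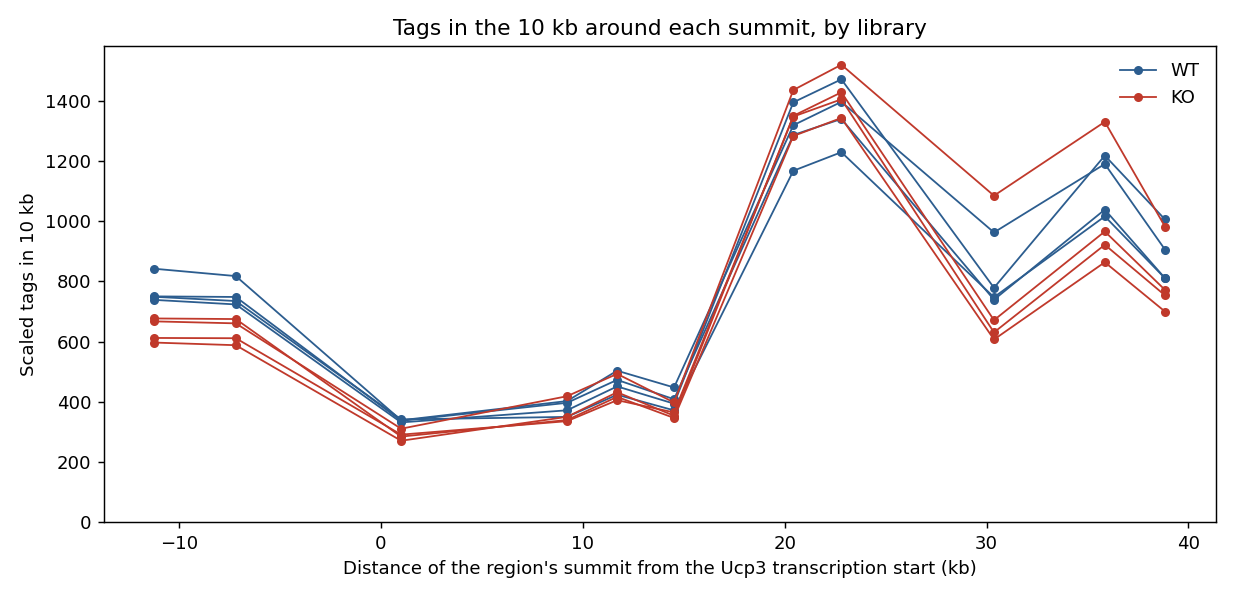
Tags in the 10 kb around each summit, scaled to a common library median, against the distance of the summit from the Ucp3 transcription start in kb, with a line for each library (blue WT, red KO). KO lines run below all WT lines at the 3 leftmost positions (L1, L2 and L6), and the lines of the genotypes mix from L8 onwards. The share of all regions with such a separation was not worked out.

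Related genes were read at their promoters, that is at regions open in all libraries with a summit within 1 kb of a start. Of 49 mitochondrial carrier genes of the family to which Ucp2 and Ucp3 belong, 40 had such a region, 2 had a promoter peak in some libraries and 7, Ucp1 among them, had none. Of 48 regions, 2 were lower in KO and 1 was higher, against 7.03% and 5.81% of all regions, with a median of 0.12 (0.04 over all regions). The lower regions were at Slc25a36, a pyrimidine nucleotide carrier (-0.51, SE 0.147, limma adjusted p = 0.0138; a second promoter region of this gene stood at 0.20, adjusted p = 0.111), and at Slc25a27, also known as Ucp4 (-0.48, SE 0.154, adjusted p = 0.0314). Slc25a51, which carries NAD into mitochondria, was higher (0.29, SE 0.0981, adjusted p = 0.0392). None of the 48 passed with scaling by total depth, and with quantile normalisation 3 were lower and none was higher.

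Of 20 genes of fatty acid use, many of them PPAR targets, 19 had a promoter region open in all libraries and Cpt1b had none. Of 19 regions (Hadha and Hadhb share 1), 3 were lower and 3 higher, against 7.03% and 5.81% of all regions, with a median of 0.08 (0.04 over all regions). Fabp4 (-0.70), the fatty acid receptor Cd36 (-0.30, limma adjusted p = 0.0398) and the lipid droplet protein Plin2 (-0.29, adjusted p = 0.0186) were lower. The fatty acid oxidation genes Acadm (0.32, adjusted p = 0.00392) and Cpt2 (0.31, adjusted p = 0.0118) and the fatty acid activating enzyme Acsl1 (0.28, adjusted p = 0.0160) were higher. With scaling by total depth Fabp4 passed (adjusted p = 0.00252) and the other 5 did not, and with quantile normalisation all 6 passed in the same direction.

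Over the 8 libraries, the promoter regions whose scaled log2 tags ran most like those of L11 at the Ucp2 start were at Mrps9, Arsk, F830208F22Rik, AI429214 and Bri3bp (Pearson r 0.969, 0.966, 0.964, 0.964 and 0.962). For L6, which stands for the Ucp3 start, they were at Dxo, Mrps16, Cdk5, Eif5a and Ubl3 (r 0.981, 0.973, 0.973, 0.970 and 0.967). These are the highest values among 13264 promoter regions, the points share library depth and genotype, and they are given as a description.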

How the data were processed

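ATAC-seq peak lists of 8 libraries of sorted AMs were used, 4 KO and 4 WT, grouped by their titles. According to the study's methods and the labels, the authors used cutadapt for trimming, Bowtie2 for alignment to mm10 and SAMtools for filtering, and called peaks per library with MACS3 at a q-value of 0.05, without a control. Each deposited list gives a score, a fold over local background (a ratio), the −log10 p-value and −log10 q-value and the summit. The score was not used, and −log10 q served as a filter in 1 alternative. Read counts were not used here, so the authors' edgeR test was not fitted.

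The summit tags and the local background were solved from the fold and −log10 p-value of the deposited lists. The solution was a whole number of tags for 100% of peaks, to a relative error of 1e-05. The lists were made to rank peaks within a library, and setting tags of different libraries side by side goes beyond that use. For the 47499 regions called in every library, log2(tags + 0.5) minus the library median was fitted with limma 3.58.1 (R 4.3.3, trended prior variance, two-sided, p adjusted by Benjamini-Hochberg with a threshold of 0.05). The fit was tested on simulated data. Scaled tags are tags brought to a common library median. Presence of a peak was compared by exact permutation over libraries. Where no peak is listed, the tags stayed under a threshold that rises with the local background, or the stretch above it was shorter than the minimum peak width of 200 bp. Which of these applied cannot be read from the lists.

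Sequence came from GRCm38 and RefSeq promoters, which matched both genes, and gene models from GENCODE M21. All peaks lay within the chromosome lengths. The window, gene lists, motifs and median scaling were chosen with earlier results of these data known. Named were all regions of the window, the deleted genes, called promoters of 2 gene lists (at most 3 in each direction) and the 5 promoters most like each start region. Marker genes were read at promoters in the same way. Alternatives were other scalings, a pseudocount of 5, filters, missing values filled in, merging rules, averaged replicates, a replicate block and leaving out each library.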

Additional observations from a re-analysis of the deposited data

Results flagged for a closer look

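In 31 groups of 4 library values tested with Dixon's ratio, 3 single libraries stood far from the other 3, and chance alone gives about 1 in 20 such groups. At L8, in the Ucp3 intron, KO replicate 1_2 had 37.8 scaled tags, below the other KO libraries (61.6 to 65.4), and without it L8 passed as higher in KO. At L10, between the genes, WT replicate 4 had 85.7 scaled tags against 59.5 to 63.8 in the other WT libraries, and without it the difference turned from -0.08 to 0.03. WT replicate 1_3 had 19 peaks in the window against 17 in each other WT library. It is the deepest library and the only one with a peak at L4 or L13.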

How the results depend on the processing

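L2 kept its direction and call under all 16 alternatives. The number of called regions of the window was 1 in each alternative and in an added fit of 6 libraries, except that leaving out single libraries gave 1 to 2 (2 without KO replicate 1_2, which adds L8). The count of genotype-specific regions stayed at 0, and the differences in peaks (-1.75) and covered length (-797 bp) in the window and the median over its regions moved by less than the spread between libraries. Without WT replicate 1_3 the covered length differed by -524 bp and the number of peaks by -1.25, and without KO replicate 2 by -1.17 peaks. Across all regions, 6096 were called with median scaling (3337 lower, 2759 higher in KO), and 2563 with total depth scaling (1988 lower, 575 higher). Quantile normalisation gave 5984 (3621 lower, 2363 higher). Regions near 0 changed sign without passing: L12 with total depth scaling (-0.030), quantile normalisation (-0.061) and leaving out single libraries (-0.018 to 0.050). L14 did so with total depth scaling (-0.021), the replicate block (-0.0045) and leaving out single libraries (-0.089 to 0.13), and L10 with the replicate block (0.020) and leaving out single libraries (-0.15 to 0.033). L17 did so with missing peaks filled in (0.013), replicates 1_2 and 1_3 averaged (0.015) and leaving out single libraries (-0.089 to 0.057). The cause was not tested. With missing peaks set to the fewest tags called in that library, L3, L5, L7 and L15 differed by -0.83, -0.97, -0.58 and -0.59 (limma adjusted p = 0.252, 0.190, 0.410 and 0.645). The filled values were 6 to 9 tags. In the KO libraries without a peak, a call needed 13 tags at L3, 16 at L5 and 15 at L7. At L15 a call needed 23 to 36 tags in the libraries without a peak. The fill lies below these limits, so the size of these 4 differences depends on it. The 3 calls from tags in 10 kb fell to 0 with total depth scaling.

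Replicate numbers 1_2, 1_3 and 3 occur in both genotypes. The deviations of same-numbered libraries correlated weakly, at 0.056, 0.116 and 0.037, yet each of the 3 KO libraries correlated best with the WT library of its number. The main fit has no pairing term, and whether the numbers pair the samples was not settled. On the 6 libraries the replicate block raised the calls over all regions from 5423 to 7182 (3268 lower, 3914 higher), and in the window 1 region, L2, was called (-0.46). Within these pairs the difference was -1.33 peaks and -1005 bp in the window. The smallest summits called held 6 to 9 tags, depending on the library, so weaker openings cannot be seen in the lists.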
